A study of Mus musculus with 15 samples.

Results

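Expression of 32 genes of glycolysis and of the response to low oxygen was measured in sorted mouse germinal centre B cells. The list holds 35 gene symbols, listed by their known roles. They are glucose and lactate transporters, glycolytic enzymes, enzymes that set the flux through glycolysis, the oxygen sensors of the cell, and targets of the hypoxia-inducible factor HIF outside glycolysis. A gene was measured where a probe set of the array carries its symbol and no other, and where several did, the one with the highest mean was taken. This gave 32 of 35 genes among 19938 genes in all, and Gpi1, Gapdh and Eno1 are not analysed here.

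The cells were SwHEL B cells, which carry a receptor for hen egg lysozyme and the CD45.1 marker, placed in CD45.2 C57BL/6J mice. The hosts were immunized with sheep red cells that bore the lysozyme mutant HEL3x, and on day 10 donor germinal centre cells (CD45.1+ CD45.2- IgG1+ CD38 low) were sorted from spleen. Light zone cells were gated as CD86 high and CXCR4 low and dark zone cells as CXCR4 high and CD86 low. Within each zone, high-affinity and low-affinity cells were kept apart. The groups, which differ in zone and affinity and share the donor receptor, the host strain, the antigen and the day, were Lzhi (3 arrays), Lzlo (4), Dzhi (4) and Dzlo (4). The donor cells started from a single receptor specificity, and the hosts keep their own B cells, which the CD45 gate was set to leave out. The labels do not say whether the samples came from separate mice, so p-values measure only the spread between these samples, and the number of arrays limits the precision.

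Glycolysis splits glucose into pyruvate in a chain of enzymes, most of which exist as several isoforms from separate genes. Fructose bisphosphate aldolase, which cuts the sugar, has forms encoded by Aldoa, the form of muscle and most cells, and by Aldoc, a form best known from brain. When oxygen is scarce, prolyl hydroxylases of the Egln family stop marking HIF-1 alpha for destruction, and the factor raises transporters, glycolytic enzymes, lactate dehydrogenase and Pdk1, which holds pyruvate back from the mitochondria. Light zones of germinal centres in spleen are known to hold regions of low oxygen, and B cells there test their receptor on antigen, while dark zone cells divide and mutate it.

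All values are log2 values made with RMA, a method that corrects background, sets all arrays to a common distribution and combines the probes of a set. Values of a group are given in replicate order, which for Lzhi is 1, 2 and 4. A difference of 1 is a 2-fold difference, and values of different genes are not set against each other, because probes differ in how they bind. Array medians lay between 5.57 and 5.74 and correlations between arrays between 0.94 and 0.993. The 9 measured germinal centre B cell markers of a list of 12 had a mean that lay within -0.29 and 0.21 of its overall mean on every array, and Bcl6, the transcription factor of these cells, had values of 9.74 to 10.54 in light zone and 9.38 to 10.39 in dark zone arrays. Lzlo replicate 3 stood apart: 14 of 14 neutrophil markers, 6 of 8 T cell markers and 6 of 13 macrophage markers had their highest value there. The mean of the neutrophil list relative to all arrays ranged between -1.08 and 0.22 in Lzhi, -0.94 and 2.92 in Lzlo, -0.92 and 0.43 in Dzhi and -0.87 and 1.56 in Dzlo. The 1.56 was that of Dzlo replicate 3. Lzlo replicate 3 held the highest value of 16.4% of all genes, and Lzhi replicate 4 that of 15%. S100a8, an abundant neutrophil gene, had 11.71 in Lzlo replicate 3. Values without this array are given beside some of the differences that it moved.

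The promoters of Aldoc, of Aldoa and of Bnip3, a HIF target of mitochondrial turnover, are shown because Aldoc is compared with Aldoa and with HIF targets. The sequences are those of RefSeq on build GRCm38.p6, each 300 bases from 250 before the transcription start to 50 from it on, read 5′ to 3′ on the strand of the gene. Capitals mark ACGTG or GCGTG, the core of the HIF response element, or the same letters read on the other strand, where ACGTG becomes CACGT and the other core becomes CACGC.
Aldoc, chr11:78322823-78323122, plus strand: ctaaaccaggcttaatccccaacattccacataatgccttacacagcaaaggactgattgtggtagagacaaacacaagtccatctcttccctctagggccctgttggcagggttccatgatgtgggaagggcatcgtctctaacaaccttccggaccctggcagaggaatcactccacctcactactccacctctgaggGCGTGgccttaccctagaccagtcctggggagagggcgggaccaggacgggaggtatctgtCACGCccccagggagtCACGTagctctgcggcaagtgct
Aldoa, chr7:126799205-126799504, minus strand: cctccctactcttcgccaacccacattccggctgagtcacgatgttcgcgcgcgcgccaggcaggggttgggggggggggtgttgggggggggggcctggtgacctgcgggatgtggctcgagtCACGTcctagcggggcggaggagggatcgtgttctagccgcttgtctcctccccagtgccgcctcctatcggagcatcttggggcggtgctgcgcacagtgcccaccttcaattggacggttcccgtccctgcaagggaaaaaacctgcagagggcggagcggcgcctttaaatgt
Bnip3, chr7:138909457-138909756, minus strand: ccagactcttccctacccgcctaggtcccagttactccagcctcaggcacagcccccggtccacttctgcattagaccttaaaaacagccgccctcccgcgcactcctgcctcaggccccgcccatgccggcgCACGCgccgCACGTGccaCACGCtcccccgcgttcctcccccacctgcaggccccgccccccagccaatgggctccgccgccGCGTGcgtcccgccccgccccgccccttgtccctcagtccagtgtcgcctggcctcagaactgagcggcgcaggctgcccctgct
This Aldoc promoter, 1 of 2 listed, holds 3 copies, whose first bases lie 50 bases before the start and at bases 12 and 28 from it on. This Aldoa promoter, 1 of 3 listed for the gene, holds 1 copy, 126 bases before its start. The other Aldoc promoter holds 1 copy. Of the other Aldoa promoters, 1 holds 0 copies and 1 overlaps the printed window and holds the same copy. The promoter of Bnip3 holds 5, among them a CACGTG that reads as ACGTG on both strands and counts as 2 overlapping copies. Entries were found for 32 of the 35 listed genes, and 38 of their 48 promoters (79.2%) held at least 1 copy, against 43.8% of all 32851 promoters of this length. ACGTG alone stood in 58.3% of the listed genes' promoters and in 19.6% of all. Promoters of 1 gene were counted separately, also where their windows overlap. By gene, 29 of 32 held a copy in at least 1 promoter, against 46.7% of all genes. The list was made from known roles, HIF targets among them, so these shares are no independent finding about it. A match describes the letters only and is no measure of binding.

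The comparison of zones asked which of these genes differ between light zone and dark zone cells. Aldoc was the only member that passed the threshold, an adjusted p under 0.05 over all 19938 genes in limma. In Lzhi arrays Aldoc had 7.95, 7.69 and 7.66 and in Lzlo arrays 8.39, 8.08, 8.27 and 9.06. In Dzhi arrays it had 6.20, 6.97, 7.09 and 6.90 and in Dzlo arrays 6.85, 6.23, 6.72 and 7.01. Every light zone array was above every dark zone array.

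Over both affinities Aldoc averaged 8.16 ± 0.48 in light zone cells and 6.74 ± 0.34 in dark zone cells (SD, n = 7 and 8 arrays). In the limma fit, which weights both affinities equally, it rose by 1.36 ± 0.17 (SE), a 2.57-fold difference (95% interval of 0.99 to 1.74 on the log2 scale, adjusted p = 0.00476). Of all genes, 0.155% passed in this comparison, and 0.0802% had light zone values that were all higher. The members were listed with this difference already known, so the call is no independent evidence about the list. Among low-affinity cells Aldoc averaged 8.45 ± 0.42 in Lzlo and 6.70 ± 0.34 in Dzlo (SD, n = 4 each), and rose by 1.75 ± 0.24, or 3.36-fold (adjusted p = 0.0374 in limma). There 0.01% of genes passed and 0.988% had Lzlo values that were all higher. Among high-affinity cells it averaged 7.77 ± 0.16 in Lzhi and 6.79 ± 0.40 in Dzhi (SD, n = 3 and 4), a difference of 0.98 ± 0.26 that did not pass (adjusted p = 0.780 in limma), although the groups did not overlap. There 0.015% of genes passed and 1.84% had Lzhi values that were all higher.

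The sample descriptions carry experiment codes, here called A to D. Lzhi has no array of experiment D, and code B is written differently for light zone and dark zone arrays. Within experiments, with both forms of code B taken as 1 experiment, Aldoc was higher in the light zone array in 7 of 7 pairs. The labels do not say whether the 2 forms are the same experiment, so the B pairs between zones are uncertain. Among high-affinity arrays the difference was 1.75 in A, 0.72 in B and 0.58 in C, and among low-affinity arrays 1.54 in A, 1.85 in B, 2.05 in C and 1.55 in D. Without Lzlo replicate 3 the low-affinity difference was 1.81 ± 0.26 and no longer passed (adjusted p = 0.0524 in limma). The call in low-affinity cells was also lost without any 1 of Lzhi replicates 2 and 4, Lzlo replicates 1, 2 and 4, Dzhi replicate 2 and Dzlo replicates 1, 2 and 3, with differences of 1.55 to 1.87 over all fits that left out 1 array. The call over both affinities held in each of the 15 such fits.

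**Figure D1:**
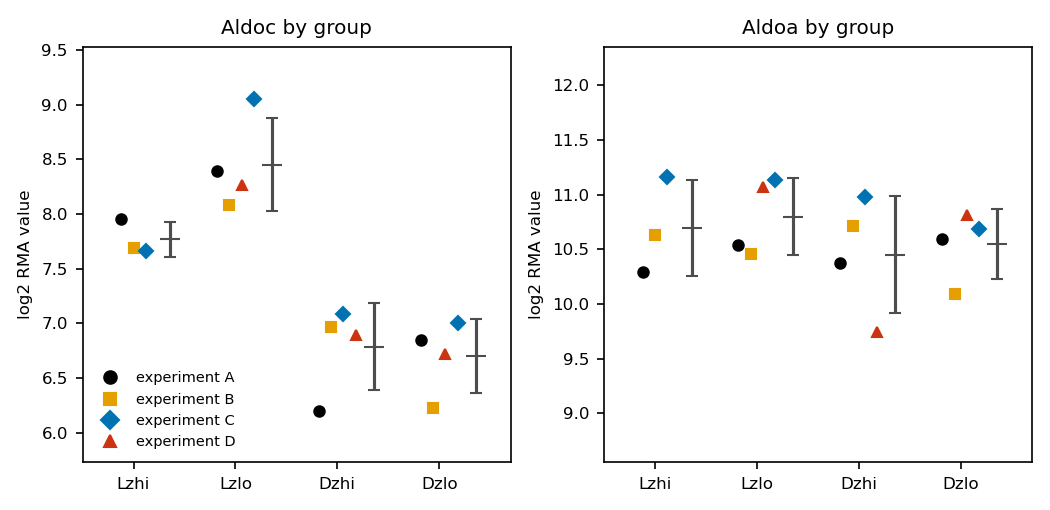
Aldoc (left) and Aldoa (right) in each array, as log2 RMA values on the y axis, by group on the x axis, with symbols for the experiment and bars for the mean and SD of each group. All Aldoc values in Lzhi and Lzlo lie at or above 7.66 and all in Dzhi and Dzlo at or below 7.09, while the Aldoa values of the 4 groups overlap.

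Aldoa, the other aldolase on the list, gave overlapping groups. It had 10.29, 10.63 and 11.16 in Lzhi and 10.54, 10.45, 11.07 and 11.14 in Lzlo. The values were 10.38, 10.71, 10.98 and 9.74 in Dzhi and 10.60, 10.09, 10.81 and 10.69 in Dzlo. Its zone difference was 0.25 ± 0.20, with a 95% interval of -0.18 to 0.68 (adjusted p = 1.00 in limma). Relative to its mean over all arrays, Aldoc minus Aldoa was 0.88, 0.27 and -0.28 in Lzhi. In Dzhi it was -0.96, -0.53, -0.68 and 0.37, so the high-affinity groups overlapped. In Lzlo it lay between 0.41 and 1.13 and in Dzlo between -0.88 and -0.47, without overlap. Over both affinities, the zone difference of Aldoc exceeded that of Aldoa by 1.12 on the log2 scale (two-sided exact permutation test of zone within affinity, p = 0.00245). Of 2450 relabellings, which took no account of experiments, 6 gave a difference at least as large. The smallest p this design allows is 0.000408. Because Aldoc was listed with its zone difference known, this p describes the pair of genes in these arrays.

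Among the other 31 measured members, 0 passed between zones in limma over both affinities, and 0 had an unadjusted p under 0.05, against 4.38% of all genes. Their zone differences ran between -0.23 and 0.25 with a median of 0.03, and the median of all genes was -0.01. Of the 31, 18 were above 0, as were 48% of all genes. With the probe sets the rule took, all 31 intervals at 95% lay within 1 of 0 on the log2 scale, and 17 within 0.5. A 2-fold difference in either direction was thus outside the interval of each. The highest upper bound was 0.81 for Slc2a1 and the lowest lower bound -0.66 for Bnip3. The 2-fold limit does not extend to second probe sets of Bnip3 and Higd1a, at -0.41 ± 0.30 and -0.45 ± 0.39. Within 1 affinity, intervals of 30 of the 31 lay within 1 of 0 among low-affinity cells and of 26 among high-affinity cells.

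The glucose transporter genes Slc2a1 (GLUT1) and Slc2a3 (GLUT3) and the lactate exporter gene Slc16a3 (MCT4) had zone differences of 0.13 ± 0.32, 0.23 ± 0.20 and 0.02 ± 0.18. Slc2a3 had 6.02, 5.79 and 5.93 in Lzhi and 5.95, 6.05, 7.30 and 5.65 in Lzlo. It had 5.71, 5.94, 5.87 and 5.87 in Dzhi and 5.49, 5.81, 6.07 and 6.01 in Dzlo, and the 7.30 was that of Lzlo replicate 3. Among low-affinity cells the Slc2a3 difference was 0.39 ± 0.27, and 0.04 without that array. The Slc2a1 difference there was 0.05 with it and -0.36 without it. Over both affinities and without that array, Slc2a1, Slc2a3 and Slc16a3 were at -0.07 ± 0.26, 0.05 ± 0.10 and -0.11 ± 0.13.

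Of the 12 glycolytic enzyme genes other than Aldoc, 7 had zone differences above 0 and 5 below, between -0.12 and 0.25. The genes of the committed steps were the hexokinase gene Hk2 at 0.20 ± 0.16 and the phosphofructokinase genes Pfkl, Pfkm and Pfkp at 0.19 ± 0.24, -0.02 ± 0.10 and -0.05 ± 0.17. In the lower part of the chain, Tpi1 (triose phosphate isomerase), Pgk1 (phosphoglycerate kinase) and Pgam1 (phosphoglycerate mutase) were at -0.03 ± 0.26, -0.04 ± 0.10 and -0.12 ± 0.17. Eno2 (an enolase), Pkm (pyruvate kinase) and Ldha (lactate dehydrogenase A) were at 0.04 ± 0.08, 0.07 ± 0.19 and 0.03 ± 0.20. Without Lzlo replicate 3, Ldha was at -0.09. The value of Hk1 is uncertain. The probe set the rule took, at 0.02 ± 0.16, is annotated with a single mRNA record that the same annotation gives, together with the ribosomal protein gene Rpl17, on other probe sets. The second Hk1 probe set, at 0.01 ± 0.11 between zones, carries the reference mRNAs of the gene.

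The regulators of flux gave small differences as well. Pfkfb3 and Pfkfb4, whose enzymes make the activator of phosphofructokinase, were at -0.03 ± 0.24 and 0.10 ± 0.14, and Pdk1, a kinase that inhibits pyruvate dehydrogenase, at 0.14 ± 0.18. Of the oxygen sensing genes, Hif1a was at -0.10 ± 0.21 and Egln3 at -0.10 ± 0.11. Egln1, which encodes the main HIF prolyl hydroxylase PHD2, had a zone difference of 0.24 ± 0.18 (adjusted p = 1.00 in limma). It had 7.32, 7.51 and 7.40 in Lzhi, 7.30, 7.34, 6.50 and 7.18 in Lzlo, 6.82, 7.58, 6.89 and 6.73 in Dzhi, and 7.38, 7.11, 6.42 and 7.12 in Dzlo. The lowest value of Lzlo, Dzhi and Dzlo was that of experiment D, and the groups overlapped. Without Lzlo replicate 3 the Egln1 zone difference over both affinities was 0.34, and that among low-affinity cells moved from 0.07 to 0.27. Among high-affinity cells the Egln1 difference was 0.41 ± 0.26. It was 0.32 without Dzhi replicate 4, the array of experiment D, which has no counterpart in Lzhi.

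Of the 10 HIF targets outside glycolysis, 5 had zone differences above 0 and 5 below, between -0.23 and 0.23. Vegfa, the growth factor of blood vessels, was at 0.06 ± 0.12. P4ha1 and P4ha2, subunits of the collagen prolyl hydroxylase, were at 0.05 ± 0.15 and -0.02 ± 0.09. Ddit4, whose product inhibits mTORC1, was at 0.21 ± 0.12, Higd1a, a mitochondrial protein gene, at -0.04 ± 0.25 and Mxi1, a MAX partner, at -0.02 ± 0.12. The mitophagy receptor genes Bnip3 and Bnip3l were at -0.23 ± 0.20 and -0.07 ± 0.21. Ndrg1 and Ankrd37 were at 0.23 ± 0.15 and 0.21 ± 0.11. Without Lzlo replicate 3, Ndrg1 was at 0.11 ± 0.10, Ddit4 at 0.12 ± 0.08 and Ankrd37 at 0.26 ± 0.11.

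Within each affinity, 1 further member in each comparison had an unadjusted p under 0.05 in limma and did not pass the adjusted one. Of all genes, 3.53% had such a p among low-affinity cells and 2.8% among high-affinity cells. Among low-affinity cells it was Ndrg1, a gene induced by hypoxia and cell stress, at 0.52 ± 0.20 (adjusted p = 1.00). Ndrg1 had 5.98, 6.19 and 6.16 in Lzhi, 6.19, 6.43, 7.30 and 6.40 in Lzlo, 6.27, 5.88, 6.35 and 6.19 in Dzhi, and 6.00, 6.10, 6.29 and 5.86 in Dzlo. The Lzlo and Dzlo values overlapped, and without Lzlo replicate 3, which had the 7.30, the difference was 0.27 ± 0.14. Among high-affinity cells it was Ankrd37, at 0.40 ± 0.17 (adjusted p = 1.00), with 8.11, 8.01 and 7.79 in Lzhi and 7.74, 7.80, 7.37 and 7.39 in Dzhi. The lowest Lzhi value and the highest Dzhi value overlapped narrowly.

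Bnip3 had the lowest high-affinity difference among the members, -0.53 ± 0.30 (adjusted p = 1.00 in limma). It had 6.04, 6.35 and 5.22 in Lzhi, 6.26, 6.44, 6.06 and 5.56 in Lzlo, 6.30, 6.24, 6.99 and 6.08 in Dzhi, and 6.12, 6.09, 6.30 and 5.51 in Dzlo. Arrays of experiment C held the lowest value of Lzhi, Lzlo and Dzlo and the highest of Dzhi. Without Lzhi replicate 4 the difference was -0.21. Its low-affinity zone difference was 0.07 ± 0.27. The second Bnip3 probe set was at -0.62 ± 0.44 among high-affinity cells and -0.20 ± 0.41 among low-affinity cells.

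**Figure D2:**
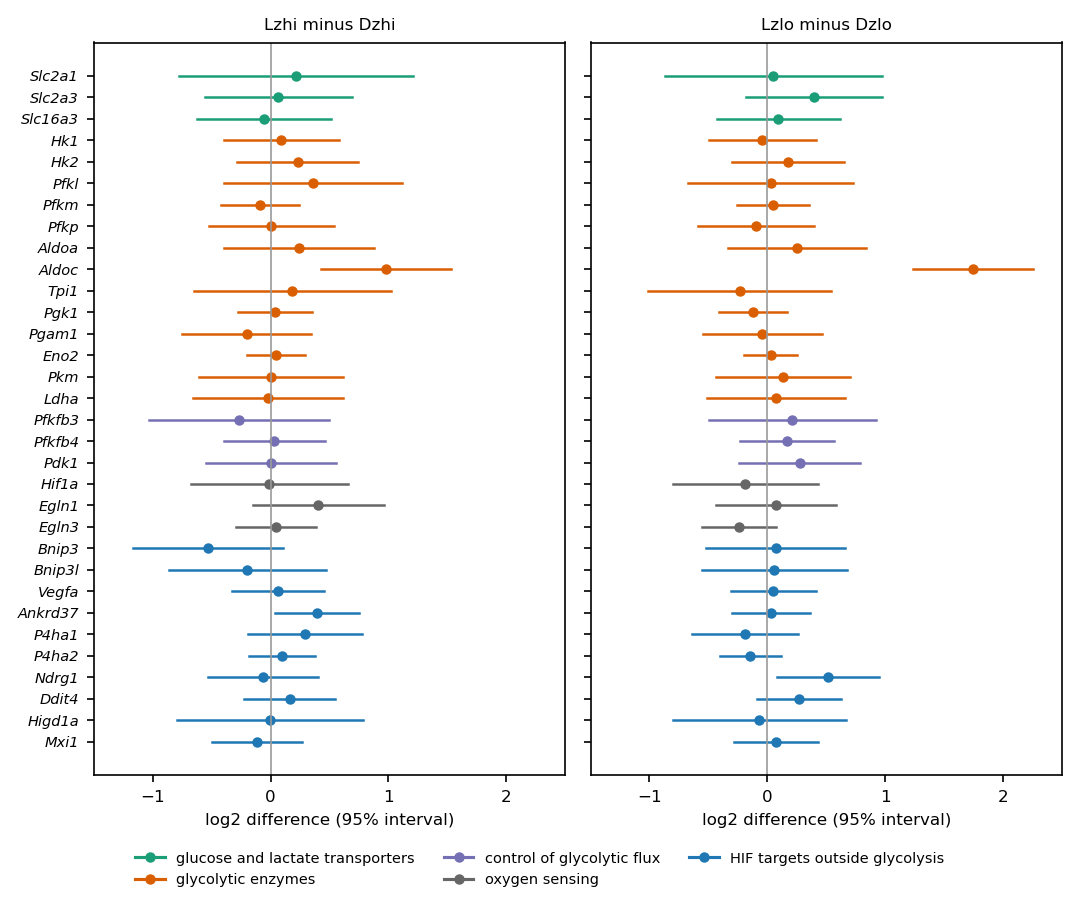
Zone differences of the 32 members with 95% intervals, on the log2 scale of the x axis, as Lzhi minus Dzhi (left) and Lzlo minus Dzlo (right), coloured by role. Aldoc lies at 0.98 and 1.75, and the other 31 lie between -0.53 and 0.41 on the left and between -0.24 and 0.52 on the right.

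The affinity comparisons asked which of these genes differ between high-affinity and low-affinity cells of 1 zone. In the light zone 0 of 32 members passed in limma, as did 0% of all genes. With the probe sets the rule took, Aldoc alone had an unadjusted p under 0.05, against 4% of all genes. The Aldoc values of Lzhi, given above, were all below those of Lzlo, with a difference of -0.68 ± 0.26 (adjusted p = 1.00). Within experiments the difference was -0.44 in A, -0.39 in B and -1.39 in C, and without Lzlo replicate 3 it was -0.74. Over all fits that left out 1 array it lay between -0.81 and -0.48. Of all genes, 2.29% had Lzhi values that were all lower. With those probe sets, Bnip3l was the other member whose groups did not overlap, with 9.34, 9.27 and 8.69 in Lzhi and 9.62, 9.45, 9.70 and 9.52 in Lzlo. Its difference was -0.47 ± 0.31, and -0.26 without Lzhi replicate 4, which had the 8.69.

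The second Hk1 probe set, the one that carries the reference mRNAs, had 6.14, 6.19 and 5.75 in Lzhi and 6.42, 6.46, 6.91 and 6.48 in Lzlo. It had 6.01, 6.47, 6.23 and 6.06 in Dzhi and 6.64, 6.26, 6.33 and 6.33 in Dzlo. Every Lzhi value was below every Lzlo value, and the dark zone groups overlapped. The light zone difference was -0.54 ± 0.16, with an unadjusted p under 0.05 that did not pass the adjusted one (adjusted p = 1.00 in limma). Without Lzlo replicate 3 it was -0.43 ± 0.15. The Hk1 probe set the rule took was at 0.16 there, so the 2 probe sets disagree.

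Pfkfb3 had a light zone affinity difference of -0.57 ± 0.36 (adjusted p = 1.00 in limma), with 7.57, 7.49 and 5.78 in Lzhi and 7.75, 7.75, 7.69 and 6.90 in Lzlo. Both arrays of experiment C were the lowest of their group. Without Lzhi replicate 4, which had the 5.78, the difference was 0.01. The 31 members other than Aldoc lay between -0.57 and 0.38, with P4ha1 the highest at 0.38 ± 0.22. All 3 transporter genes and all 3 flux regulators had negative differences there, of -0.57 to -0.05. Slc2a1, Slc2a3 and Slc16a3 had their highest value in Lzlo replicate 3, and without it their differences were 0.36 ± 0.40, 0.03 ± 0.16 and 0.01 ± 0.20. Pfkfb3, Pfkfb4 and Pdk1 were then at -0.52 ± 0.39, -0.10 ± 0.15 and -0.13 ± 0.27, and Hk2 at 0.33 ± 0.20.

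In the dark zone 0 of 32 members passed in limma, as did 0% of all genes, and 0 members had an unadjusted p under 0.05, against 1.6% of all genes. Aldoc differed by 0.09 ± 0.24, with a 95% interval of -0.42 to 0.59. The members with the largest differences were Bnip3 at 0.40 ± 0.27, Pfkl at -0.36 ± 0.33 and Ldha at 0.32 ± 0.27 (adjusted p = 1.00 for each). The second Bnip3 probe set, not used by the rule, was at 0.71 ± 0.41 there. In the light zone that set was at 0.29 ± 0.44 and the one used at -0.21 ± 0.30, so their signs differ. Pfkl had 6.22, 6.63, 7.09 and 5.73 in Dzhi and 6.68, 6.03, 7.23 and 7.15 in Dzlo. Ldha had 9.69, 10.09, 10.49 and 9.88 in Dzhi and 9.55, 9.27, 10.17 and 9.88 in Dzlo. In both genes the groups overlapped. Within experiments, Ldha was higher in the high-affinity array in 3 of 4 dark zone pairs (-0.29 to 0.81). In the light zone it was higher in 3 of 3, by 0.35 or more. Pfkl was higher in 1 of 4 dark zone and 2 of 3 light zone pairs. Pfkm, picked after the pairs were seen, was higher in 4 of 4 (0.09 to 0.39) and 3 of 3 (0.18 to 0.32). These pairs carry no test, and 0 members passed in either zone with the experiment as a block. Without Dzhi replicate 3, the Bnip3 difference was 0.20 and that of Ldha 0.17. That of Pfkl was -0.13 without Dzhi replicate 4 and -0.61 without Dzlo replicate 2. In the light zone Pfkl had 6.38, 6.64 and 7.31 in Lzhi and 6.60, 6.51, 7.31 and 6.78 in Lzlo, and Ldha had 9.61, 10.12 and 10.32 in Lzhi and 9.26, 9.52, 10.48 and 9.92 in Lzlo.

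**Figure D3:**
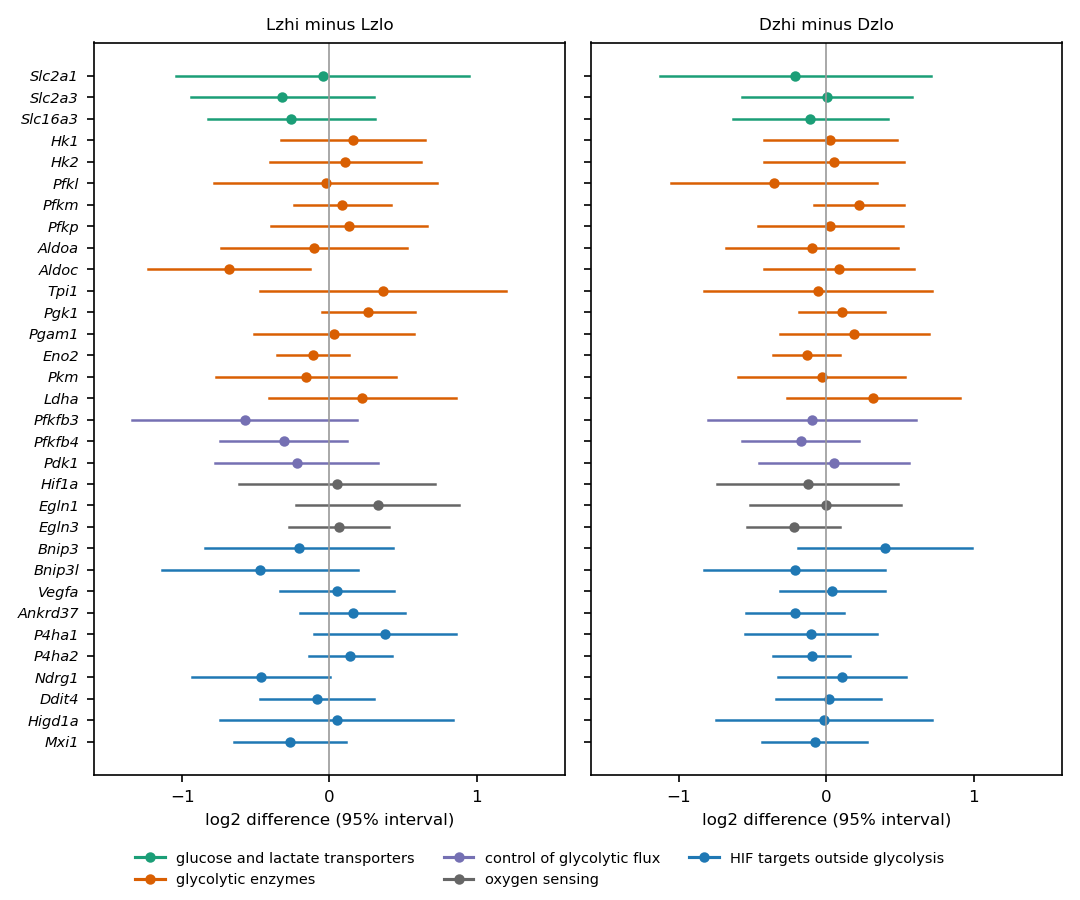
Affinity differences of the 32 members with 95% intervals, on the log2 scale of the x axis, as Lzhi minus Lzlo (left) and Dzhi minus Dzlo (right), coloured by role. Aldoc lies at -0.68 on the left and 0.09 on the right, and the others lie between -0.57 and 0.38 and between -0.36 and 0.40.

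The interaction compared the zone difference at the 2 affinities. For Aldoc the zone difference in high-affinity cells minus that in low-affinity cells was -0.77 ± 0.35, with a 95% interval of -1.52 to -0.02 (adjusted p = 1.00 in limma). Without Lzlo replicate 3 it was -0.83. Of the members, 1 had an unadjusted p under 0.05, against 1.33% of all genes, and 0 passed the adjusted one, as did 0% of all genes. The Aldoc zone difference was thus not shown to differ between affinities. Over both zones, high minus low affinity was -0.30 ± 0.17 for Aldoc, and the other members lay between -0.34 and 0.27. With the probe sets the rule took, 0 members passed there in limma and 0 had an unadjusted p under 0.05, against 0% and 4.3% of all genes. The second Hk1 probe set was outside that range, at -0.37 ± 0.11, with an unadjusted p under 0.05 (adjusted p = 1.00 in limma).

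Marker lists of other B cell states also differed between the groups. The mean of the 6 measured naive or marginal zone B cell markers, of a list of 8, relative to all arrays lay between -0.05 and 0.04 in Lzhi and 0.16 and 0.62 in Lzlo, and between -0.41 and -0.19 in Dzhi and -0.25 and 0.02 in Dzlo. Fcer2a, the gene of CD23 on that list, rose by 1.69 ± 0.13 between zones, and the other 5 did not pass. The mean of 13 mitosis genes lay between 0.02 and 0.34 in Lzhi, -1.29 and -0.09 in Lzlo, 0.01 and 0.65 in Dzhi and -0.18 and 0.41 in Dzlo. The mean of 6 plasma cell markers lay between -0.17 and 0.29 in Lzhi, -0.41 and -0.01 in Lzlo, 0.24 and 0.44 in Dzhi and -0.20 and 0.08 in Dzlo. The mean of 8 T cell markers was 1.47 in Lzlo replicate 3, 0.87 in Lzlo replicate 4 and between -0.56 and 0.31 in the other arrays. Lzlo replicate 4 had the highest Aldoc value, 9.06, and without it the low-affinity zone difference of Aldoc was 1.55 (adjusted p = 0.0947 in limma). The part of these lists in the Aldoc difference was not tested. In sorted bulk samples a change in the share of a kind of cell and a change in RNA per cell cannot be told apart.

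Single arrays held many of the highest or lowest values of the members, and the experiment code was examined as well. Lzlo replicate 3 held the highest value of 11 of 32 members, against 16.4% of all genes, among them Slc2a1 at 9.17, Slc16a3 at 7.28, Hk2 at 7.06, Pfkfb4 at 5.50 and Ddit4 at 7.25. The neutrophil markers given above were highest in the same array, and their part in these values was not tested. Dzhi replicate 4 held the lowest value of 9 of 32 members, against 8% of all genes. Relative to their group means, the arrays of experiments A to D averaged -0.35, -0.47, 0.42 and 0.53 for Slc2a1 and -0.36, -0.14, 0.26 and 0.33 for Ldha. For Tpi1 they averaged -0.28, -0.26, 0.61 and -0.10, and for Hif1a 0.24, 0.25, -0.37 and -0.16. An F test of the code beside the 4 groups was added after the data were seen. In it 1 of 32 members (3.12%) passed, close to the 3.43% of all genes. This was the uncertain Hk1 probe set (adjusted p = 0.0430 in limma). Slc2a1, Ldha, Tpi1 and Hif1a did not pass (adjusted p = 0.112, 0.114, 0.124 and 0.197 in the same F test). At an unadjusted p under 0.05 there were 10 members (31.2%), against 23.4% of all genes.

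**Figure D4:**
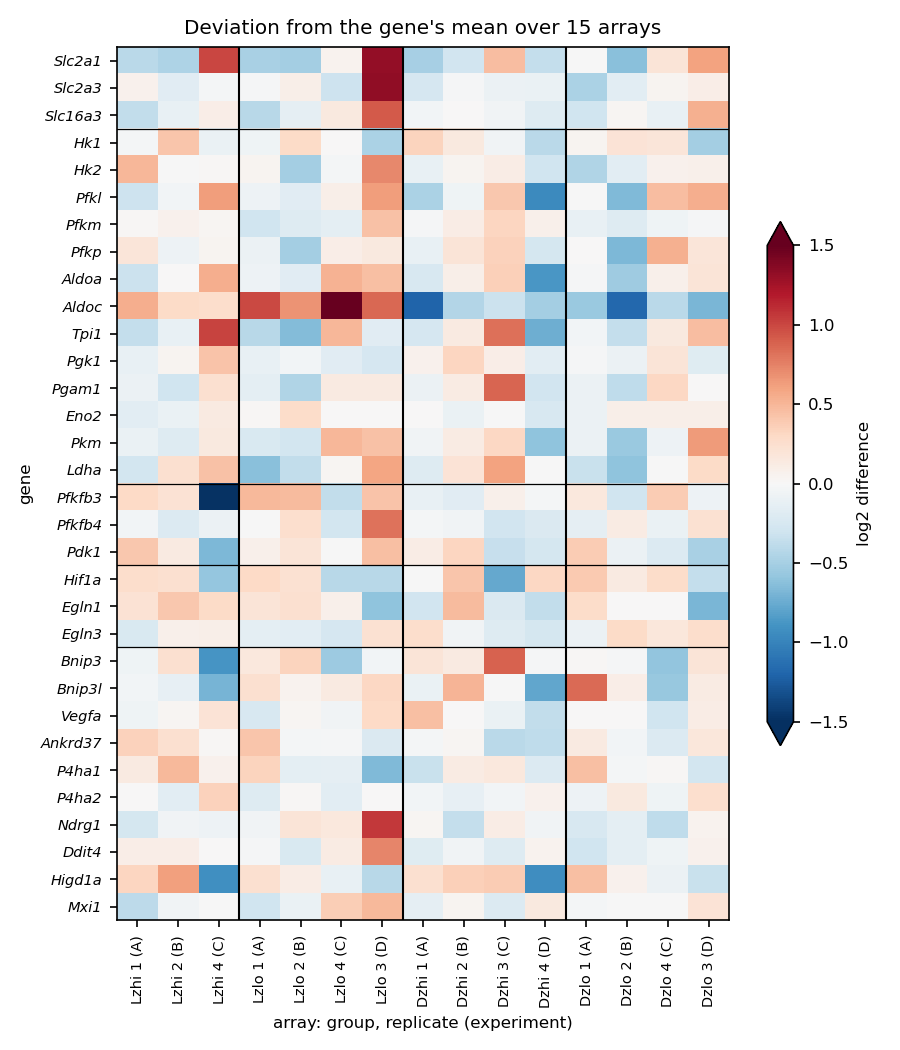
Deviation of each member (rows, by role) from its mean over the 15 arrays (columns, with replicate and experiment), on a log2 colour scale. The Aldoc row is positive in all 7 light zone arrays and negative in all 8 dark zone arrays, and the column of Lzlo replicate 3 holds the highest value of 11 members.

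Further genes of the same pathways were examined as 4 lists, to be read against 0.155% of all genes that passed between zones and 4.38% with an unadjusted p under 0.05. Of 30 further glycolysis and pyruvate genes, 0 passed between zones in limma and 1 had an unadjusted p under 0.05, and their differences had a median of 0.03. This was Bpgm, a red cell mutase gene, at -0.46 ± 0.16 (adjusted p = 0.692). Of 7 further oxygen sensing genes, 0 passed and 0 had an unadjusted p under 0.05, with a median of -0.08. Of 7 pentose phosphate genes, 0 passed and 1 had an unadjusted p under 0.05, with a median of -0.06. It was Rpia, which makes ribose phosphate, at -0.90 ± 0.23 (adjusted p = 0.255), lower in the light zone array in 7 of 7 pairs with code B merged.

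Of 35 further HIF targets, 1 passed between zones and it was lower in light zone cells, and the median of the list was -0.05. At an unadjusted p under 0.05 there were 4, with positive differences in 2 and negative ones in 2. Nt5e, which encodes the ectoenzyme CD73, fell by 0.92 ± 0.17 (adjusted p = 0.0453 in limma). It had 6.83, 6.90 and 6.61 in Lzhi, 6.89, 7.06, 6.62 and 5.85 in Lzlo, 7.15, 7.71, 7.70 and 7.60 in Dzhi, and 7.84, 7.85, 7.37 and 7.70 in Dzlo. Every light zone array was below every dark zone array, but the call held in only 4 of the 15 fits that left out 1 array (without Lzlo replicates 2 or 4, Dzhi replicate 1 or Dzlo replicate 3), with an adjusted p of up to 0.121 over all alternatives. Bhlhe40, a transcription factor gene, was at 0.64 ± 0.13 and did not pass (adjusted p = 0.0832 in limma, or 0.0303 with the experiment as a block). It had 4.89, 5.18 and 5.36 in Lzhi, 5.12, 5.21, 5.95 and 5.54 in Lzlo, 4.57, 4.73, 4.81 and 4.53 in Dzhi, and 4.68, 4.61, 4.86 and 4.51 in Dzlo. Its light zone values were all higher, if narrowly, as were those of 0.0802% of all genes. With code B merged, Bhlhe40 was higher in the light zone array in 7 of 7 pairs. It passed in 0 of the 15 fits that left out 1 array and in 6 of 12 other alternatives. Cxcr4, a HIF target whose protein was used in the sort, was at -0.69 ± 0.16 and is no finding between zones.

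For affinity, 0 genes of these 4 lists passed in limma in either zone. At an unadjusted p under 0.05 there were 2 in the light zone, Hif1an among them, and 3 in the dark zone, against 4% and 1.6% of all genes. Hif1an, whose product is the asparagine hydroxylase that inhibits HIF, was at -0.70 ± 0.23 in the light zone (adjusted p = 1.00). It had 6.22, 5.83 and 5.51 in Lzhi and 6.69, 6.26, 6.92 and 6.36 in Lzlo, and the groups did not overlap. Over both zones, high minus low affinity was -0.65 ± 0.16 (adjusted p = 0.666).

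The genes whose pattern over the 15 arrays was most like that of Aldoc were Sorl1, Cd72, Nfkbia, S1pr3 and Ptpn6, with Pearson correlations of 0.914, 0.901, 0.898, 0.890 and 0.887. The arrays share groups and experiments, so these values describe the arrays and carry no test. With each group's mean removed, the correlations were 0.713, 0.777, 0.583, 0.296 and 0.686. Among the members the highest correlations with Aldoc over the same arrays were 0.484 for Ddit4, 0.450 for Aldoa and 0.402 for Ndrg1, and the lowest was -0.492 for Egln3. Of all genes, 4.43% had a higher correlation than Ddit4. With each group's mean removed, the order of the members changed. The highest were then 0.681 for Pfkp and 0.553 for Pgam1, and the lowest was -0.662 for Egln3. Ddit4, Aldoa and Ndrg1 were at 0.104, 0.379 and -0.287.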

How the data were processed

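Each array measured the amplified RNA of 1 sorted sample, per the labels' protocols. The deposited log2 values cover 28853 probe sets and come from RMA, per the submitters' processing notes. These also name build mm8. Which software ran RMA is not given in the sources used here. Differences of dim genes are pulled towards 0 by this method. The table has no detection calls.

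Groups came from the sample titles. The platform annotation gave 1 symbol to 21789 probe sets, several to 1621 and none to 5443. Only the first were used, and for 999 genes with more than 1 probe set the highest mean was taken, which left 19938 genes. Among these 999 are 7 members. For Pgk1 and Pgam1, 2 of 3 probe sets were identical. For Higd1a the second probe set ranged between 5.81 and 8.89 and the one used between 9.14 and 10.69, with zone differences of -0.45 and -0.04.

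Limma 3.58.1 in R 4.3.3 (lmFit, eBayes) fitted 4 group means to 15 arrays with 11 residual degrees of freedom. Benjamini-Hochberg adjustment ran over all genes of a comparison, and the steps were tested on simulated data. Values per array are printed for Aldoc, Aldoa, members that passed, and the 3 largest differences of a comparison. Other genes were named where they passed, or had a low unadjusted p, and were chosen after their values were seen. The members and lists were chosen with earlier results of these data known. Promoter motifs were counted in Python 3.11.15 and figures drawn with matplotlib 3.10.9.

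Deviations from group means correlated at 0.288 on average over the 21 pairs of arrays that share an experiment code but not a group (16 above 0.1) and at -0.08 over 63 pairs with different codes. A fit with that code as a block, which merges both forms of code B, is given where it changed a call.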

Additional observations from a re-analysis of the deposited data

Results flagged for a closer look

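Of 96 sets of 4 arrays (a member in a group), 5 held a value far from the other 3 arrays, and about 1 in 20 would by chance, or 4.8. Eno2 had 5.41 in Lzlo replicate 2, against 5.14 to 5.15 in the other arrays of the group. In Dzlo replicate 1 it had 5.05, against 5.22 to 5.23. Pfkfb3 had 6.90 in Lzlo replicate 4, against 7.69 to 7.75. Higd1a had 9.14 in Dzhi replicate 4, against 10.31 to 10.44, and Mxi1 had 6.14 in Dzlo replicate 3, against 5.90 to 5.93.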

How the results depend on the processing

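Results were recomputed under 30 alternatives, of which 15 left out 1 array and 15 changed the normalization, filter, probe set rule, variance model, weights, block, arrays or threshold. The rise of Aldoc between zones passed in 28 of 28 fits in limma, at 1.26 to 1.43 and an adjusted p of 0.00182 to 0.0315. Its low-affinity zone difference stayed between 1.55 and 1.87 and passed in 15 of 29 fits (adjusted p of 0.00988 to 0.261). The count of members past the threshold there was 0 with array medians centred, with only the groups compared, without the Lzlo and Dzlo arrays of experiment D and without all of D, and 0 to 1 over the fits that left out 1 array. With the replicate block of the experiment code, both forms of B merged, the Aldoc values were 1.36 (adjusted p = 0.00322) and 1.75 (adjusted p = 0.0104) and no other member's call changed. With the code as written the Aldoc values were 1.39 (adjusted p = 0.0280 in limma) and 1.77 (adjusted p = 0.0479 in limma). Of 6375 fits of the other 31 members, 0 passed. Over all genes, 18 to 37 passed between zones when 1 array was left out and 24 to 90 under the other alternatives, 0 to 4 and 0 to 30 among low-affinity cells, and 1 to 4 and 1 to 11 among high-affinity cells. Without detection calls, how far dim members such as Egln3 and Pfkfb4 lay above background is not known, and their differences may be understated by RMA.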
